A study of Rattus norvegicus with 9 samples.

Results

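The genomic regions described here are those on chromosomes 1 to 20 where the Egr1 ChIP-seq signal of females in proestrus was listed as different both from males and from females in diestrus. They were chosen from the measured signal itself: a region of proestrus versus males was paired with a region of proestrus versus diestrus when both overlapped by at least 1 bp. This gave 149 pairs, or 298 of the 5690 regions listed in all 3 comparisons. The pairs held 7.14% of the 2087 autosomal regions of proestrus versus males and 9.01% of the 1654 autosomal regions of proestrus versus diestrus. Both comparisons used the same proestrus libraries, so that a shared direction was fixed in large part by the way the pairs were chosen and is given as a description, with no test.

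Egr1 was immunoprecipitated from sheared chromatin of the medial prefrontal cortex (mPFC) of 8-week-old Sprague-Dawley rats, and the DNA bound to it was sequenced. The groups were males (n = 3), females killed in the early afternoon of proestrus, when sex hormones are high (n = 2), and females killed early on the first day of diestrus, when they are low (n = 4), as left by the authors after removal of outlier libraries. No genetic change or drug was part of the design. The tissue holds neurons, glia and vascular cells together, so that more bound Egr1 per cell and more cells with bound Egr1 cannot be told apart.

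Egr1 is a zinc finger transcription factor and the product of an immediate early gene, which neurons switch on within minutes of synaptic activity and of hormonal or growth factor signals. It binds GC-rich DNA, often near gene starts but also at distant enhancers, and it takes part in the activity-dependent gene programs of synaptic plasticity. In ChIP-seq, a region that Egr1 occupies yields more reads than its surroundings or than DNA that was not immunoprecipitated. The nearest gene of a region is an annotation by distance and does not show that the gene is its target.

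In 146 of the 149 pairs, the proestrus signal was higher than that of both other groups, and in 3 it was lower than both. No pair had opposite directions. Among all autosomal regions, 90.3% of those of proestrus versus males and 98.2% of those of proestrus versus diestrus were higher in proestrus. The 146 higher pairs held 7.75% of the 1885 higher regions of the first comparison and 8.98% of the 1625 of the second. The 3 lower pairs held 1.49% of the 202 lower regions of the first and 10.3% of the 29 of the second, which were few. A further 57 overlapping pairs lay on chromosome X and were not included.

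The values are normalized reads per region, listed for each library in a fixed order without sample names. In the higher pairs, the median over the 146 regions of proestrus versus males was 8.25 and 8.11 normalized reads in the listed proestrus libraries 1 and 2, and 1.39, 1.83, and 0.63 in the male libraries 1 to 3. In these medians, both proestrus libraries stood above all male libraries. In proestrus versus diestrus, the medians were 6.58 and 6.26 in the proestrus libraries and 0.85, 0, 1.06, and 1.04 in the diestrus libraries 1 to 4. The listed diestrus library 2 had no read at all in 83 of the 146 regions, and the proestrus libraries had reads in all of them.

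**Figure D1:**
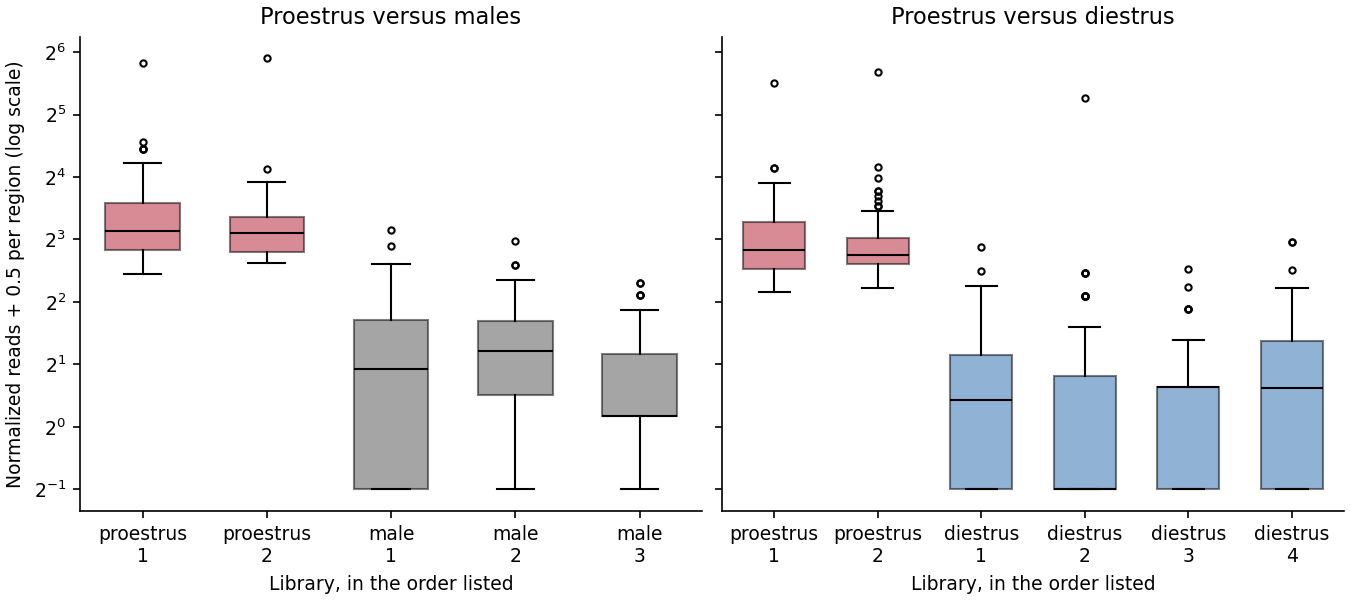
Normalized reads of the 146 pairs higher in proestrus, by library, in proestrus versus males (left) and proestrus versus diestrus (right). The vertical axis is normalized reads + 0.5 on a log scale, boxes span the quartiles with the median as a line, whiskers reach 1.5 times the box, and circles are single regions. The boxes of the proestrus libraries lie above those of all other libraries, and the diestrus library 2 has its median at 0.

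Every proestrus library was above every male library in 146 of 146 higher pairs, and above every diestrus library in 146 of 146. This held equally for all autosomal regions higher in proestrus, 100% of those of proestrus versus males and 99.7% of those of proestrus versus diestrus, and is therefore not a property of the pairs. Few reads lay behind each value. The median region held 19 reads over the 5 libraries of proestrus versus males (range 11 to 117) and 18 reads over the 6 libraries of proestrus versus diestrus (range 11 to 146). Fewer than 20 reads lay behind 51.4% of the 146 regions in the first comparison and 59.6% in the second, against 81.3% and 74.2% of the other higher autosomal regions.

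Over the 146 higher pairs, the median of the group means was 8.18 normalized reads in proestrus and 1.36 in males. The median log2 ratio of the means was 2.59 (quartiles 2.32 to 2.99, range 1.39 to 4.77) in the 145 regions where males had reads. Against diestrus, the medians were 6.75 normalized reads in proestrus and 0.79 in diestrus, with a median log2 ratio of 2.96 (quartiles 2.63 to 3.32, range 1.69 to 5.14) in 144 regions. The other 1739 higher regions of proestrus versus males had a median log2 ratio of 2.89, and the other 1479 of proestrus versus diestrus had 3.01. With regions at 0 set to their bound, the medians were 2.60 for the pairs and 2.85 for the other regions against males, and 2.96 and 2.95 against diestrus. Against males, the ratios of the pairs were thus lower at the median than those of the other regions, and against diestrus the order depended on the regions at 0. In proestrus versus males, both their means had higher medians than in the other higher regions, 8.18 against 6.96 normalized reads in proestrus and 1.36 against 0.98 in males. In proestrus versus diestrus, the medians were 6.75 against 6.42 in proestrus and 0.79 in both sets in diestrus.

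**Figure D2:**
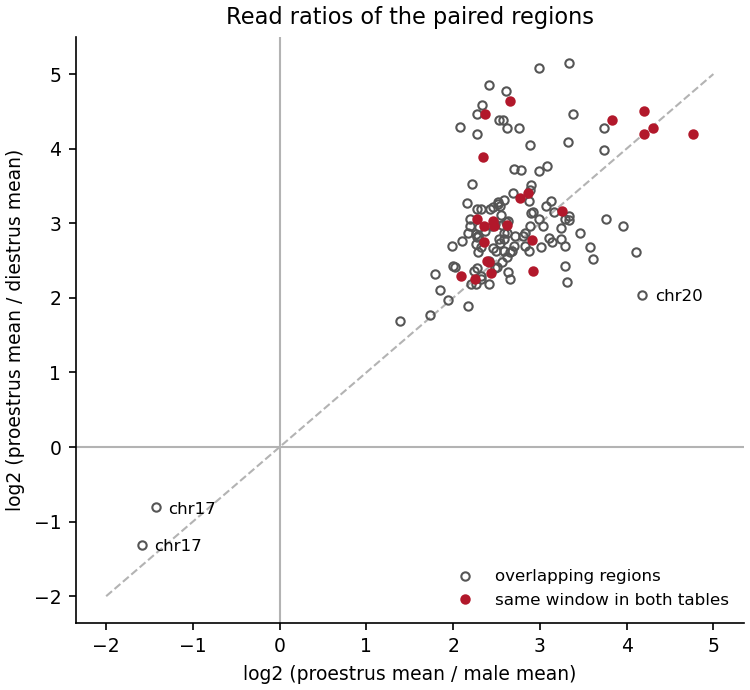
Log2 ratio of the proestrus mean to the male mean (horizontal) and to the diestrus mean (vertical) for the pairs with reads in all groups, with equal ratios on the dashed line. Filled points are pairs with the same window in both comparisons. All points lie in the upper right except those on chromosome 17, and the chromosome 20 point lies farthest below the line.

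In the 143 higher pairs with reads in both other groups, the ratio was larger against diestrus in 98. The median difference of the log2 ratios, diestrus minus males, was 0.28, with a range from -2.14 to 2.44. The ratios of 118 pairs differed by no more than 1 on the log2 scale. At least 4-fold ratios in both comparisons were found in 136 of these pairs, and at least 8-fold ratios in both in 19. These ratios share their proestrus libraries, and the comparisons were normalized separately.

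The 24 pairs with identical windows in both comparisons allow the closest reading, because the recovered reads of both proestrus libraries were equal in all 24 and the deposited enrichment was too. These windows held 345 proestrus reads, 104 male reads, and 84 diestrus reads in all. The male mean was 17.1% of the proestrus mean at the median (range 3.67% to 23.5%), and the diestrus mean 12.1% (range 4.02% to 21%). In 16 of these 24 windows, all higher in proestrus, the diestrus share was below the male share. Over all 146 higher pairs, the corresponding medians were 16.5% for males and 12.8% for diestrus.

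At 3 of the higher pairs, 1 of the other groups had no read, and they are named here because their values stood at 0. At chr9:31688451-31688950, 13319 bp upstream of its nearest gene, all male libraries were at 0, against 6.60 and 5.68 normalized reads in proestrus. With a floor of 3 reads over the group, proestrus was at least 6.26-fold higher than males there, and the exact 95% interval of the pooled reads, which also covers the counting error of the 11 proestrus reads, began at 4.62. At chr11:19919151-19919650, males had 1 read and all 4 diestrus libraries of the overlapping region had none, against 12 reads in proestrus, at least 7.24-fold higher than diestrus with this floor and 4.89-fold at the lower end of the exact interval. The other such pair lay nearest to Aga and is given below. In total, all diestrus libraries were at 0 in 2 of the 146 higher pairs, against 146 of the other 1479 higher regions of proestrus versus diestrus. All male libraries were at 0 in 1 of these pairs, against 67 of the other 1739 of proestrus versus males. At least 2 of the 4 diestrus libraries were at 0 in 82 pairs, and at least 2 of the 3 male libraries in 15. These last counts were made for the pairs only.

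The deposited enrichment sets the mean of each group against a background, so a difference in enrichment is relative to that background. The study also made an input library, of DNA that was not immunoprecipitated, for each sample. The sources do not say whether these libraries were the background. Enrichment was higher in proestrus than in males in 145 of the 145 higher pairs where both had a value, and than in diestrus in 144 of 144. Among all higher autosomal regions, it was higher in 98.9% against males and in 100% against diestrus. The median enrichment over the pairs was 2.94 in proestrus and 0.58 in males, and 3.08 in proestrus and 0.37 in diestrus. By these medians, proestrus was above its background, and the other groups were below theirs. In the other higher autosomal regions, these medians were 2.52 and 0.39 against males, and 2.68 and 0.32 against diestrus. In 132 of the 143 pairs with enrichment in all groups, the proestrus value was at least 2 times that of both others. In none of the higher pairs was the proestrus enrichment below 1. Both counts were made for the pairs only. The mean that chose the regions is also the numerator of the enrichment, so high values follow in part from the choice.

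The background itself, which follows from dividing a mean by its enrichment, differed little between the groups on balance. Its median log2 ratio was 0.14 for proestrus to males (range -2.91 to 3.90) and -0.07 for proestrus to diestrus (range -2.17 to 1.91). It was higher in proestrus in 84 of 145 pairs against males and in 66 of 144 against diestrus. Among the other higher autosomal regions, it was higher in 965 of 1662 and in 650 of 1327. The background and read ratios nevertheless lay within 1 of each other on the log2 scale in 10 pairs against males and in 6 against diestrus. The pairs on chromosomes 17 and 20 described next are among both. Others, named here after their values were seen, were chr3:53211301-53211800, with a background ratio of 2.83 and a read ratio of 3.25 against males (2.67 without the male library 1 and 3.92 without the male library 3), and chr4:133761251-133761750, with 2.02 and 2.28 (1.46 without the proestrus library 1).

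**Figure D3:**
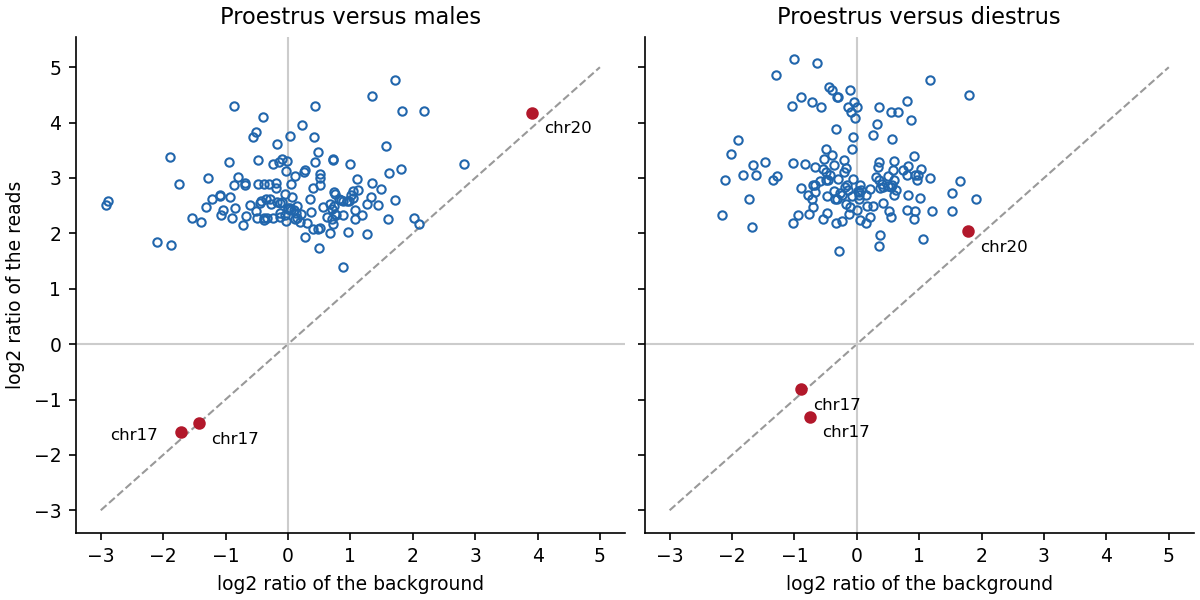
Log2 ratio of the background (horizontal) and of the reads (vertical) for proestrus versus males (left) and proestrus versus diestrus (right), with 1 point for each pair and equal ratios on the dashed line. Most pairs lie above the line around a background ratio of 0, and the filled points on chromosomes 17 and 20 lie close to it, as do a few of the open points.

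The pairs with the most reads were the lower pairs on chromosome 17, which lay 1950 bp apart at the gene ENSRNOG00000028913. The first, chr17:91123001-91125350, lay inside the gene and had 260.56 and 255.57 normalized reads in the proestrus libraries against 810.25, 513.48, and 753.85 in the male libraries. The means were 258 ± 3.53 (SD, n = 2) and 693 ± 158 (SD, n = 3), a log2 ratio of -1.42 that stayed between -1.60 and -1.30 when any 1 library was left out. The groups did not overlap. Its partner region, chr17:91123401-91124200, had 124.98 and 135.59 normalized reads in proestrus and 249.99, 252.02, 273.08, and 138.58 in diestrus. The listed diestrus library 4 came within 3 normalized reads of the higher proestrus library, and the log2 ratio was -0.81 with it and -0.99 without it.

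The second, chr17:91127301-91130050, lay 204 bp downstream of the same gene. Its normalized reads were 125.33 and 122.51 in proestrus and 422.5, 288.83, and 407.04 in males, a log2 ratio of -1.59. Its partner region, chr17:91127351-91128250, had 25 and 28.51 in proestrus and 81.06, 79.39, 75.15, and 29.17 in diestrus, a log2 ratio of -1.31 (-1.55 without the diestrus library 4). The same diestrus library again sat next to the proestrus libraries. The background moved with the reads at both pairs, with log2 ratios of -1.42 and -1.72 against males and of -0.90 and -0.75 against diestrus. Enrichment in the first pair was 1.37 in both proestrus and males, so the difference there was one of reads in a region whose background differed as much.

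The first chromosome 17 pair was also the only one that overlapped a region of diestrus versus males, which is 0.671% of the pairs. Among all autosomal regions, 1.20% of those of proestrus versus males and 0.907% of those of proestrus versus diestrus did so. It overlapped 2 such regions. At chr17:91123001-91123500, diestrus had 17.18, 20.6, 18.92, and 11.82 normalized reads and males 36.08, 31.85, and 34.02, a log2 ratio of diestrus to males of -0.99. At chr17:91124401-91125300, diestrus had 101.14, 100.24, 100.52, and 70.93 and males 209.03, 119.22, and 161.2, a log2 ratio of -0.81. The order of the groups at this locus was thus proestrus below diestrus below males in the 3 comparisons, each with its own windows and scaling.

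The third lower pair had reads in both other groups and none in proestrus. It was chr2:54088801-54089400, which overlapped the start of the gene ENSRNOG00000013372 on the minus strand. Both proestrus libraries were at 0 in both comparisons, against 6.95, 6.42, and 8.24 normalized reads in males (25 reads in all) and 5.97, 8.82, 6.35, and 7.29 in diestrus (27 reads) over a region 50 bp longer. Set against a floor of 3 reads over the group, proestrus was at least 3.90-fold lower than males and at least 4.71-fold lower than diestrus. The exact 95% intervals of the pooled reads began at 3.41 and 3.88. The enrichment was 1.10 in males and 2.15 in diestrus.

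The higher pair with the most reads was chr20:29290601-29291850, 71438 bp downstream of its nearest gene. It had 56.07 and 59.23 normalized reads in proestrus against 2.78, 5.5, and 1.27 in males, a log2 ratio of 4.18. The overlapping region, chr20:29290651-29291800, had 44.73 and 50.76 in proestrus and 4.27, 37.80, 4.23, and 0 in diestrus. The listed diestrus library 2 stood near the proestrus libraries and apart from the other diestrus libraries, and the log2 ratio was 2.04 with it and 4.07 without it. Here too the background differed, with log2 ratios of 3.90 against males and 1.78 against diestrus, and the enrichment was 1.15 in proestrus, 0.95 in males, and 0.96 in diestrus. Among the 143 higher pairs with reads in all groups, the ratio against males exceeded that against diestrus by the most here. The ratio against males was 4.83 without the male library 2.

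The next by reads were neighbours on chromosome 2, both upstream of ENSRNOG00000009697 and 43300 bp apart. At chr2:166392801-166393500, 24306 bp from the gene, proestrus had 14.84 and 14.60 normalized reads and males 6.95, 1.83, and 4.44, a log2 ratio of 1.74. The overlapping region had 11.84 and 13.21 in proestrus and 2.56, 3.78, 1.06, and 7.29 in diestrus, a log2 ratio of 1.77. At chr2:166436901-166437400, 68406 bp from the gene, the log2 ratios were 1.39 against males and 1.69 against diestrus. These ratios were the lowest or near the lowest of the higher pairs, and no library of another group reached a proestrus library. At the second, the background differed with the reads against males, with a log2 ratio of 0.88 and an enrichment of 1.38 in proestrus and 0.97 in males. Against diestrus, the background ratio was -0.28 and the enrichment 1.60 in proestrus and 0.41 in diestrus.

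Among pairs with at least 20 reads in both regions, 5 were chosen by the smaller of their log2 ratios. One of them was chr13:82055901-82056850, 79998 bp downstream of its nearest gene. Proestrus had 11.54 and 12.98 normalized reads there, and males had 0, 1.83, and 1.90, a log2 ratio of 3.29. In the overlapping region, proestrus had 9.21 and 11.13, and diestrus had 1.71, 0, 2.12, and 1.04, a log2 ratio of 3.06. The enrichment was 4.15 in proestrus, 0.22 in males, and 0.37 in diestrus.

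At chr8:127475801-127476350, 3922 bp upstream of the gene ENSRNOG00000015049, the proestrus libraries had 9.89 and 8.11 normalized reads and the male libraries 0, 1.83, and 1.27, a log2 ratio of 3.13. Against diestrus (0.85, 1.26, 1.06, and 0) the proestrus libraries had 7.89 and 7.65, a log2 ratio of 3.30. The ratio against males was 2.54 without the male library 1 and 3.83 without the male library 2. Another pair of this kind near a gene start was chr14:21855751-21856550, which lay inside a gene 3980 bp from its start. It had 18.14 and 8.11 normalized reads in proestrus and 0, 4.58, and 0 in males. Its log2 ratios were 3.10 against males and 2.80 against diestrus, and its proestrus libraries differed more from each other than those of the chromosome 8 pair. Its male reads were all in the male library 2. The ratio against males was 2.41 without the proestrus library 1, and the ratio against diestrus was 3.54 without the diestrus library 1.

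The remaining pairs of this kind were chr1:150818401-150819100 and chr19:4149301-4150050. The first, 90081 bp upstream of its nearest gene, had log2 ratios of 3.03 and 2.97, with an enrichment of 8.51 in proestrus, 1.12 in males, and 0.43 in diestrus. The second had the same window in both comparisons and log2 ratios of 2.87 against males and 3.41 against diestrus. Its proestrus reads were 17, with 4 in males and 3 in diestrus. At the first, the ratios were 3.69 without the male library 3 and 3.70 without the diestrus library 4. At the second, the ratio against diestrus was 4.78 without the diestrus library 4.

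Pairs ranked first by the adjusted p-value deposited for proestrus versus diestrus added 2 regions. At chr5:90581001-90581650, inside a gene, proestrus had 14.84 and 14.60 normalized reads and males 2.78, 3.67, and 3.8, a log2 ratio of 2.11. In the overlapping region, proestrus had 9.21 and 12.52 and diestrus 4.27, 0, 2.12, and 0, a log2 ratio of 2.76 (3.94 without the diestrus library 1). At chr6:46331001-46331500, the log2 ratios were 1.85 and 2.11, smaller than at most pairs, but the proestrus enrichment was 12.96 against 0.84 in males and 8.17 against 0.59 in diestrus. Proestrus had the lower background there, with log2 ratios of -2.1 against males and -1.68 against diestrus.

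Gene symbols could be matched for 4 of the 145 nearest genes, Nrip1, Tmem191c, Pgm2, and Aga. Nrip1 encodes a corepressor that binds ligand-activated nuclear receptors, the estrogen receptors among them. Its pair, chr11:18503451-18503950, lay 105887 bp upstream of Nrip1 (ENSRNOG00000001585). The proestrus libraries had 8.25 and 6.49 normalized reads and the male libraries 2.78, 0, and 1.27, with means of 7.37 ± 1.24 (SD, n = 2) and 1.35 ± 1.39 (SD, n = 3). In the overlapping region, chr11:18503501-18504200, proestrus had 9.21 and 5.56 and diestrus 1.71, 0, 0, and 2.08, with means of 7.39 ± 2.58 (SD, n = 2) and 0.95 ± 1.10 (SD, n = 4). The groups did not overlap in either comparison.

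The log2 ratios at Nrip1 were 2.45 against males (3.54 without the male library 1) and 2.96 against diestrus (3.70 without the diestrus library 4). They rest on 13 proestrus and 4 male reads, and on 15 proestrus and 4 diestrus reads. The fold of the pooled reads was 5.99 against males (exact 95% interval 1.85 to 25.2) and 6.60 against diestrus (2.1 to 27.3), where the intervals cover counting error only. The enrichment was 1.51 and 0.45 in the first comparison and 1.28 and 0.25 in the second, and the background had log2 ratios of 0.70 and 0.60.

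**Figure D4:**
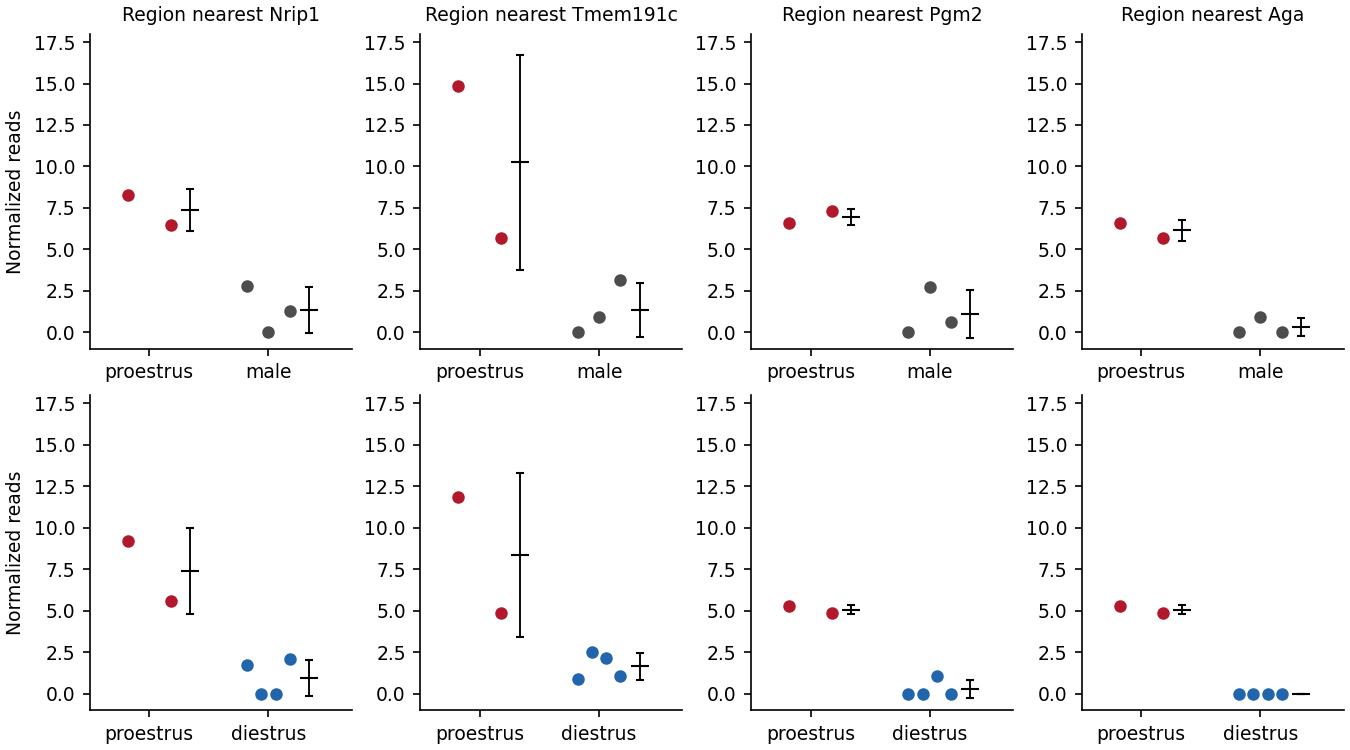
Normalized reads at the pairs nearest to Nrip1, Tmem191c, Pgm2, and Aga, in proestrus versus males (top) and proestrus versus diestrus (bottom). Each point is a library, and the black marks beside the points are the mean and its SD. Every proestrus point lies above every point of the other group, with the widest spread between the proestrus libraries at Tmem191c.

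Tmem191c (ENSRNOG00000001864), which encodes a transmembrane protein, was the nearest gene of chr11:91012701-91013200, at 17147 bp downstream and in the same window in both comparisons. Proestrus had 14.84 and 5.68 normalized reads, and males had 0, 0.92, and 3.17, a log2 ratio of 2.92. Against diestrus (0.85, 2.52, 2.12, and 1.04), proestrus had 11.84 and 4.87, a log2 ratio of 2.36. Without the proestrus library 1, the ratios were 2.06 and 1.58. Without the male library 1, the first was 2.33, and without the male library 3 it was 4.48. The proestrus libraries were more than 2 times apart, and the enrichment was 7.88 in proestrus, 0.65 in males, and 0.90 in diestrus.

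Pgm2 (ENSRNOG00000002185) encodes a phosphoglucomutase, an enzyme of sugar phosphate metabolism. Its pair, chr14:45709901-45710400, lay 40113 bp upstream and had 6.60 and 7.30 normalized reads in proestrus against 0, 2.75, and 0.63 in males, a log2 ratio of 2.62 (4.46 without the male library 2). Against diestrus, proestrus had 5.26 and 4.87 normalized reads, and 1 read in the diestrus library 3 gave 1.06 and was the only diestrus read. The pooled fold there was 19.4 (exact 95% interval 2.81 to 834), which leaves its size largely undetermined.

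Aga (ENSRNOG00000000108) encodes the lysosomal enzyme aspartylglucosaminidase, which takes part in the breakdown of glycoproteins. Its pair, chr16:41136501-41137100, lay 132559 bp upstream. Proestrus had 6.60 and 5.68 normalized reads and males 0, 0.92, and 0, that is 11 reads against 1 and a pooled fold of 20.3 (exact 95% interval 2.94 to 872). All 4 diestrus libraries were at 0 in the overlapping region, where proestrus was at least 6.40-fold higher with the floor of 3 reads and 4.42-fold at the lower end of the exact interval. Without the male library 2, no male read was left.

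Each pair had the same nearest gene in both comparisons, and 4 genes had 2 pairs. Besides the genes on chromosomes 17 and 2, these were a gene on chromosome 7 and one on chromosome 18. The chromosome 7 pairs, chr7:68437301-68437900 and chr7:68461151-68461800, lay 68330 and 92180 bp downstream of their gene, with log2 ratios of 2.81 and 2.36 against males and of 2.82 and 2.89 against diestrus. The first ratio against males was 4.22 without the male library 1 and 2.22 without the male library 3, and no diestrus read was left without the diestrus library 2. The second was 4.55 without the male library 2, which had 3.67 normalized reads where the others had 0 and 0.63. It was 1.77 without the male library 1, and against diestrus it was 3.54 without the diestrus library 4. The chromosome 18 pairs, chr18:42466301-42466850 and chr18:42724651-42725550, lay 598618 and 339918 bp upstream, with log2 ratios of 3.74 and 2.89 against males and of 4.28 and 3.14 against diestrus. Without the male library 2, the ratios against males were 4.46 and 5.08, and the second was 2.31 without the male library 1. Against diestrus, the first had no diestrus read left without the diestrus library 3, and the second was 4.10 without the diestrus library 1.

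All 20 autosomes held at least 2 pairs. Chromosome 1 held the most, with 17 pairs (11.4%), followed by chromosome 2 with 16, chromosome 4 with 12, and chromosome 7 with 11. The fewest, 2 each, lay on chromosomes 10, 12, and 20. As a share of the listed regions, the pairs took 17.6% of the regions of proestrus versus diestrus on chromosome 11 (9 of 51), 14.5% on chromosome 16, and 2.99% on chromosome 10. Of the regions of proestrus versus males, they took 8.65%, 11.4%, and 3.13% on these chromosomes. Pairs were mostly far from each other, with a median gap of 10278350 bp between neighbours on a chromosome. Only 4 gaps were under 100 kb, on chromosomes 17, 7, 2, and 11.

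Of the 149 pairs, 32 (21.5%, Wilson 95% interval 15.6% to 28.7%) lay inside or overlapping their nearest gene, 6 (4.03%) lay up to 5 kb from it, 59 (39.6%) lay 5 to 100 kb away, and 52 (34.9%) lay farther. The share inside genes was 18.4% for all autosomal regions of proestrus versus males and 22.5% for those of proestrus versus diestrus. Both sets include the pairs, and the interval takes regions as separate draws. It describes the share and tests no difference. Pairs outside genes lay 84693 bp from the closest one at the median, against 95844 and 67022 bp for all regions of the comparisons.

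**Figure D5:**
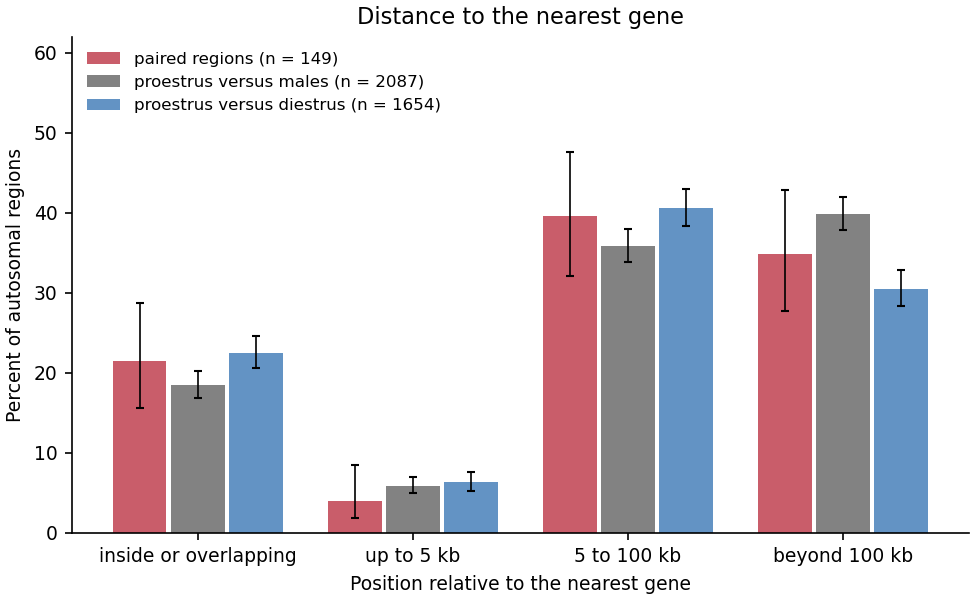
Percent of the 149 pairs and of all autosomal regions of each comparison by distance to the nearest gene, with 95% Wilson intervals as error bars. The intervals take regions as separate draws and test no difference. Most regions in each set lie more than 5 kb from a gene.

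Within 5 kb of a gene start, there were 10 pairs (6.71%), against 7.33% and 8.34% of the regions of the comparisons. Besides the lower pair on chromosome 2, 1 pair overlapped a gene start, and it is named for this position, after its values were seen. It was chr4:214741801-214742300, with 14.84 and 7.30 normalized reads in proestrus and 0, 2.75, and 2.54 in males, a log2 ratio of 2.65. Its partner region had 13.16 and 6.26 in proestrus and 1.71, 2.52, 1.06, and 1.04 in diestrus, a log2 ratio of 2.62. Without the proestrus library 1, these ratios were 2.05 and 1.98, and without the male library 1 the first was 2.07. The pair nearest to a start from inside a gene, chr17:73846651-73847150 at 472 bp, was chosen in the same way and had log2 ratios of 2.66 (3.32 without the male library 3) and 2.25.

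The paired regions overlapped by 50 to 1150 bp (median 500), and 74 of them shared a start or an end. Regions were short, with a median length of 550 bp in both comparisons, and 54.1% of the higher members of proestrus versus males were longer than the shortest listed length of 500 bp, against 46.7% of the other higher regions. At the edge of the rule, the shortest overlap was 50 bp on chromosome 16, where the log2 ratios were 2.27 against males and 4.19 against diestrus. The next were 150 bp on chromosome 15 (2.71 and 3.73) and 200 bp on chromosome 4 (2.28 and 2.83). Each of these ratios moved by over 1.5 times without some library. Without the male library 1, the ratio on chromosome 16 was 3.36, without the male library 2 it was 1.69, and without the diestrus library 3 no diestrus read was left. On chromosome 15, the ratios were 4.55 without the male library 2 and 4.49 without the diestrus library 3. On chromosome 4, they were 1.46 without the proestrus library 1 and 3.57 without the diestrus library 4. Just outside it, adjoining regions on chromosome 8 with no overlap had log2 ratios of 2.45 and 3.17, and regions 200 bp apart on chromosome 1 had 2.04 and 2.89. Regions 450 bp apart on chromosome 4 had 2.21 and 2.61. None of the 4 non-overlapping pairs within 1 kb had opposite directions.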

How the data were processed

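Egr1 ChIP-seq was analysed in 3 males, 2 females in proestrus, and 4 females in diestrus. The authors trimmed reads, mapped them to Rnor_5.0, kept unique reads with a mapping quality of at least 30, removed duplicates and outlier libraries, compared groups with DiffReps and annotated regions with ChIPpeakAnno. The submitters' processing notes name Trimmomatic 0.32, Bowtie2 2.1.0, SAMtools 0.1.19, and Picard 1.84. The sources used here do not give the window, test, normalization, or background that DiffReps used. The deposited signal is normalized reads per region, by library and as a group mean. The deposited enrichment is a ratio of the mean to a background, and the deposited adjusted p-values were used only to filter and name regions. The deposited log2 fold changes hold the authors' comparisons and were not used.

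The pairs and lists were chosen with earlier results of these data known. Pairs were formed by overlap, and log2 ratios of group means were computed without a pseudocount. No test between groups was made, because the values had chosen the members. Dixon's critical value served only to flag single diestrus libraries. The listed libraries carry no sample names, and none was matched to a sample. ChIP-seq regions hold no marker genes against which the tissue label could be checked. Reads were recovered by dividing each value by that of 1 read, which was estimated for each library. Of 31606 values, 31605 were whole within 0.1. A read was worth 1.65 and 0.811 normalized reads in the proestrus libraries of proestrus versus males and 1.39, 0.917, and 0.634 in the male libraries. It was worth 1.32 and 0.695 in proestrus and 0.853, 1.26, 1.06, and 1.04 in diestrus in the other comparison. The total depth of each library is unknown here, and intervals and floors cover counting error only. Replicates were taken as separate samples on the word of the labels. By the study's methods, libraries were pooled for sequencing in 4 tubes, 3 of which held an animal of each group and the other 2 diestrus females. Males were killed on the days of females. This layout precedes the removal of outlier libraries, so a tube need not hold every group among the libraries used here. The listed values name neither tube nor day, so no value within a tube could be given. The recovery and the pairing were tested on simulated data.

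Regions described one by one were all lower pairs, the 5 with the most reads, the 5 with the largest smaller log2 ratio (at least 20 reads in both regions), the 5 with the smallest adjusted p-value against diestrus, those overlapping a region of diestrus versus males, those of genes with 2 pairs, those whose gene had a symbol, and those at the edge of the rule. Ties went to the pair with more reads. Other pairs are marked where named. Coordinates are Rnor_5.0, for which no genome was used, so no sequence is shown. Symbols came from a shortened gene table of the study. None of the 5 gene lists was used, because fewer than 80% of their genes could be matched: 3 of 21 glutamate receptor genes, 4 of 13 GABA-A receptor genes, 0 of 12 synaptic adhesion genes, 0 of 6 steroid hormone receptor genes, and 1 of 6 genes of the Egr family and its partners. Alternatives were another overlap, added reads, medians, left-out libraries, and stricter filters. All steps ran in Python 3.11.15 with scipy 1.17.1, numpy 2.4.6, and pandas 2.3.3.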

Additional observations from a re-analysis of the deposited data

Results flagged for a closer look

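In 7 of 25 groups of 4 diestrus libraries examined at the named pairs, 1 library stood far from the other 3 relative to the range of the group (past Dixon's critical value at 95%). For normally distributed values, chance gives this in about 1 of 20 groups. That rate does not hold here, because the values are scaled read counts of regions chosen by their reads, and the groups share libraries. In the 4 groups in which all but 1 library were at 0, the ratio is at its highest by construction. The count of 7 is therefore a description, and no excess over chance can be read from it.

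On chromosome 20, the listed diestrus library 2 had 37.8 normalized reads (30 reads), and the next library 4.27. On chromosome 17, 1 diestrus library had 29.17 normalized reads at the region from 91127301 (proestrus versus diestrus), where the next had 75.15. At the region of diestrus versus males from 91124401, which overlaps the other chromosome 17 pair, 1 diestrus library had 70.93, where the next had 100.24. In both, the library was the fourth in the list.

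In those 4 groups, all but 1 diestrus library were at 0. The library with reads had 3.78 normalized reads (3 reads) on chromosome 7 from 68437301, and 1.06 (1 read) on chromosome 14 from 45709901, chromosome 16 from 84319201, and chromosome 18 from 42466301, so these rest on 1 to 3 reads.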

How the results depend on the processing

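A count was taken as moved beyond 1.5 times, a median log2 ratio beyond 1 SD between libraries (0.38 against males and 0.30 against diestrus), and the share inside genes beyond its Wilson interval. By these limits, 23 of 28 alternatives did not move. The 19 further ones that left out a library from the counts of higher pairs and of separate libraries, or took medians of the libraries, could not change them, because the libraries stood apart in every higher pair, and say nothing about stability. The number of pairs was 149, and 143 with an overlap of at least 50% of both regions, 153 with gaps of up to 1 kb, 143 with an adjusted p-value under 0.05 in both comparisons, and 140 with a log2 ratio of at least 2 in size in both, where a group at 0 was counted as past this size. The median log2 ratio over all pairs was 2.59 against males and 1.99 with 1 normalized read added. Against diestrus it was 2.96, and 2.37 with 0.5 and 2.03 with 1 normalized read added, since these amounts are near the value of 1 read. With at least 20 reads in both regions it was 2.48. With 1 library left out, the medians ranged from 2.34 to 2.75 and from 2.73 to 2.99. Of the pairs, 1 overlapped a region of diestrus versus males, and 0 did so with an overlap of at least 50%. In recovered reads without scaling, 139 of the 146 higher pairs kept all proestrus libraries above the others in both comparisons.

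Of the 45 ratios of the named pairs, 30 moved by over 1.5 times without some library, and 6 of these were left with no read in the other group, so that no ratio could be given. The report names the libraries for the ratios it prints, also for the pairs named outside the rule, an alternative chosen after seeing the data. Ratios not printed moved there too. Without the diestrus library 1, no diestrus read was left at chr9:31688451 and chr3:53211301. Without the male library 2, no male read was left at chr11:19919151. The limit of 1 SD of a ratio is wide at so few reads. Of 286 finite alternatives, 2 passed it, without the listed male library 2, at 4.55 on chromosome 7 (from 68461151) and 5.08 on chromosome 18 (from 42724651). None of the finite alternatives reversed. No paired analysis was possible because the listed library values carry no sample names, and no test between groups was made. The depth limits the size of single ratios, since 80 of the 146 higher pairs had 0 to 3 reads in diestrus and 40 had 0 to 3 in males.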
